A study of Mus musculus with 4 samples.

Results

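The mitochondrial respiratory chain moves electrons from food-derived carriers to oxygen and stores the energy as ATP. Complex I takes electrons from NADH and complex II from succinate, ubiquinone hands them to complex III, cytochrome c carries them to complex IV, and complex V, the ATP synthase, uses the resulting proton gradient. Most subunits are encoded in the nucleus, made in the cytosol and imported, and dendritic cells (DCs) at rest rely on this pathway more than after strong activation, when glycolysis takes a larger share. The genes described here are those whose annotated symbol begins with Nduf, with Sdh followed by a, b, c or d, or with Uqcr, Cox4 to Cox8 or Atp5, without Cox6a2, which is also a marker of plasmacytoid DCs. The rule found 92 of 19938 genes: 6 core and 28 accessory subunits and 7 assembly factors of complex I, 4 subunits and 4 assembly factors of complex II, 8 genes of complex III, 18 of complex IV and 17 of complex V. Ndufa4, named for complex I, and Cox7a2l, a factor that joins complexes into supercomplexes, are counted with complex IV. Cox7c and Ndufb4 share their probe sets with other symbols and were not analysed here.

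The cells were DCs that developed over 8 days from C57BL/6 marrow cultured with Flt3 ligand (200 ng/ml), the cytokine that supports DC development. The marrow came from mice with intact miR-142 (miR-142+/+, wt) or without it (miR-142-/-, ko), a microRNA of blood cells. B220-negative, CD11c-positive cells were sorted into CD4-equivalent DCs (CD172+, CD11b+, CD24 low) and CD8-equivalent DCs (CD172-, CD24+, CD11b low). Each of the 4 groups was read on 1 Affymetrix array as log2 values, so a difference between 2 arrays has no replicate check, and the number of arrays limits the precision. The age and number of mice, and whether both subsets came from 1 culture, are not given in the labels.

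Most defining markers, but not all, followed the sort. In wt all 9 CD8-equivalent markers were higher on the CD8-equivalent array. In ko 7 of the 8 compared were, while Cadm1 was lower (8.18 against 9.89), Clec9a nearly level (11.15 against 10.85) and Itgae below the floor on both arrays. The 9 markers summed to 22333 and 21827 on the wt and ko CD8-equivalent arrays and to 6954 and 14537 on the wt and ko CD4-equivalent arrays, where a sum adds the values turned back to the linear scale. The 8 CD4-equivalent markers summed to 16119 and 14968 on the wt and ko CD4-equivalent arrays and to 3139 and 3430 on the wt and ko CD8-equivalent arrays. On the ko CD4-equivalent array 2 of the 8 were at least 2-fold below wt, against 0.952% of all genes. These were Clec4a4 (8.86 in wt, 7.06 in ko) and Ltb (6.79 and 5.60). Mgl2 was at least 2-fold above wt (8.21 and 9.35), against 1.39% of all genes. The ko CD4-equivalent array also carried neutrophil markers: 10 of 13 compared were at least 2-fold above wt, against 1.39% of all genes. Mmp8 (8.48 in wt, 7.79 in ko) and Csf3r (7.83 and 7.09) were lower than in wt. Mpo read highest on the ko CD8-equivalent array (7.55, against 7.02 on the ko CD4-equivalent array). The neutrophil list summed to 4496 on the ko CD4-equivalent array against 667 to 1171 elsewhere. On the ko CD8-equivalent array the macrophage markers summed to 4345, against 9436 in wt. Other lists differed between the subsets in both genotypes. The 9 plasmacytoid DC markers summed to 5307 in wt CD4-equivalent, 11856 in wt CD8-equivalent, 9796 in ko CD4-equivalent and 14082 in ko CD8-equivalent DCs. Limma called 6 of them higher and 1 lower in CD8-equivalent DCs, against 7.98% and 6.35% of all genes. The 7 proliferation markers summed to 13088, 18711, 14673 and 22427 in the same order. Of these, 4 were called higher (7.98% of all genes) and all 7 were highest on the ko CD8-equivalent array (34.1%). The macrophage markers summed to 17112 and 9436 on the wt CD4- and CD8-equivalent arrays, with 4 called lower (6.35% of all genes). On the ko CD4-equivalent array they summed to 16184. Of the 8 macrophage markers compared, 5 were above wt in ko CD4-equivalent DCs (36.2% of all genes) and 3 below (63.8%). In ko CD8-equivalent DCs 2 were above wt (50.7% of all genes) and 6 below (49.3%). The part of these cell mixtures in the differences given here was not tested, and in sorted bulk RNA fewer cells of a type and less RNA per cell cannot be told apart.

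Respiratory chain genes read highest on the wt CD8-equivalent array. Of the 86 genes that reached the floor of 5.68 on any array (the median of all probe sets with 1 symbol), 66 had the highest of their 4 values there, against 24.6% of all 10239 genes tested. None of the 86 had its lowest value there, against 15.9% of all genes. The highest value lay on the wt CD4-equivalent array for 5 members (26.6% of all genes), on the ko CD4-equivalent array for 9 (14.8%) and on the ko CD8-equivalent array for 6 (34.1%). The lowest lay on the ko CD4-equivalent array for 42 members (39.2%), on the wt CD4-equivalent array for 28 (21.3%) and on the ko CD8-equivalent array for 16 (23.6%). The counts rest on small steps: the median spread between the highest and lowest array was 0.31 per member, against 0.44 over all genes tested, and 6 members spanned 1.5-fold or more. Leaving out 1 of the other arrays could only raise the count of 66, so the next counts do not check the pattern. Without the ko CD4-equivalent array, 74 of 86 members were highest on the wt CD8-equivalent array, against 26.4% of all genes. Without the wt CD4-equivalent array the count was 71, against 34.1%, and without the ko CD8-equivalent array it was 70, against 47.7%.

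**Figure D1:**
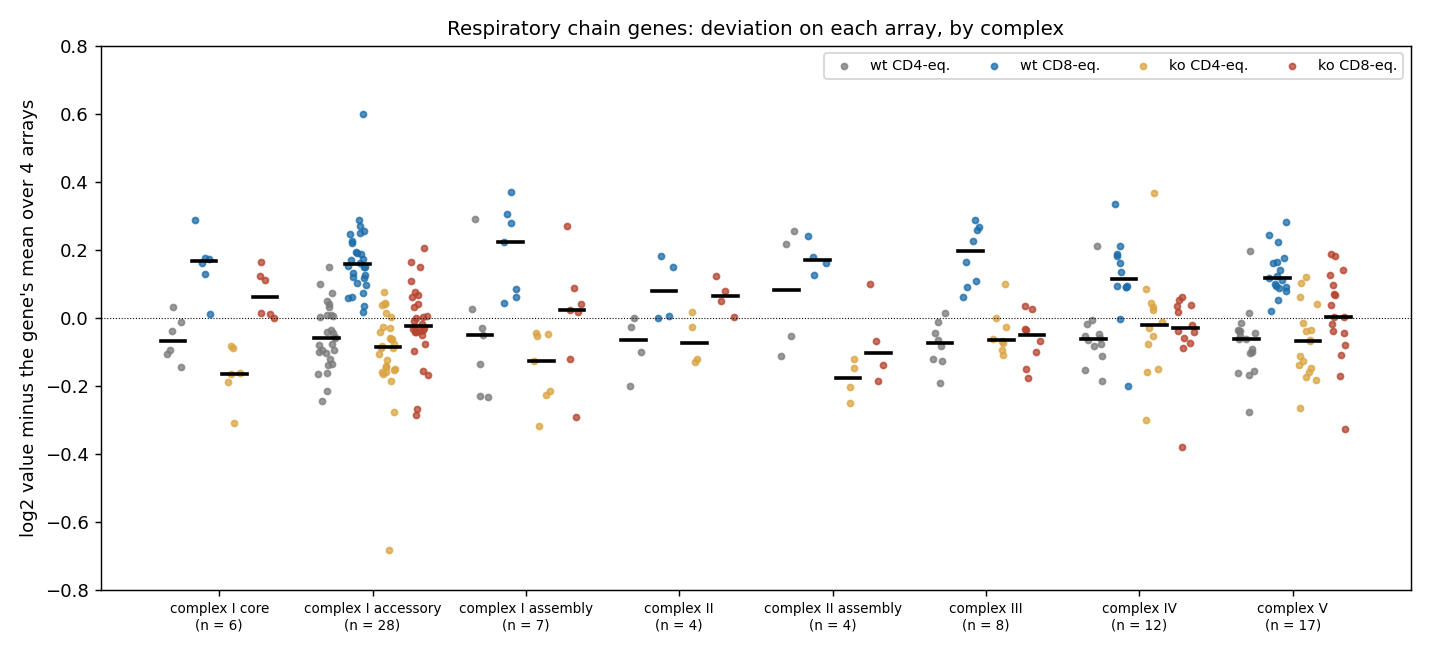
Log2 value of each respiratory chain gene minus its own mean over the 4 arrays, by complex; each point is a gene on an array, black bars are medians, and n is the number of genes at or above the floor. The wt CD8-equivalent median is the highest of the 4 in each class drawn, with 66 of 86 genes highest there.

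The pattern ran through most complexes. The wt CD8-equivalent array was the highest for 5 of 6 core and 24 of 28 accessory subunits of complex I, 6 of its 7 assembly factors, 7 of 8 complex III genes, 10 of 12 complex IV genes and 10 of 17 complex V genes. Complex II, which also serves the tricarboxylic acid cycle, was less uniform, with 2 of 4 subunits and 2 of 4 assembly factors highest there. Its flavoprotein gene Sdha read 10.82 in wt CD4-equivalent, 10.82 in wt CD8-equivalent, 10.70 in ko CD4-equivalent and 10.94 in ko CD8-equivalent DCs, so the highest value was on the ko CD8-equivalent array. The iron-sulfur subunit gene Sdhb read 10.49, 10.84, 10.67 and 10.77 in the same order. The membrane anchor genes read 10.41, 10.45, 10.46 and 10.44 (Sdhc) and 9.69, 9.97, 9.66 and 9.84 (Sdhd). The Sdhc values differed by less than those of the other 3 subunit genes.

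The first question was how the subsets differ. In wt, 78 of 86 members were above 0 in CD8-equivalent minus CD4-equivalent DCs, against 54.8% of all genes compared, and 8 were below (45.2%), with a median difference of 0.22 against 0.04. In ko, 59 of 86 were above 0 against 62.8% and 27 below against 37.2%, with a median of 0.08 against 0.11, so the members stood close to the background there. Genes in the level range of the middle of the members (8.93 to 11.6, 4163 genes) had medians of 0.04 in wt and 0.10 in ko, near those of all genes. After cyclic loess, which moved the median of all genes from 0.11 to -0.002 in ko, the members' median was 0.18 in wt and 0.02 in ko. Relative to all genes the member median was thus 0.18 in wt as deposited and 0.18 after loess, and -0.03 and 0.02 in ko.

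No member differed 2-fold between subsets in either genotype, against 2.1% of all genes higher and 3.14% lower in wt, and 3.39% and 3.9% in ko. At 1.5-fold, 2 members were higher (Ndufs6 and Ndufaf6) and 0 lower in wt against 7.88% and 7.33% of all genes, and in ko 2 were higher (Ndufs6 and Ndufaf2) against 12.2% and 1 lower (Cox7a2l) against 8.05%. Differences common to both genotypes were tested with limma, in 1 additive fit of both factors to the 4 arrays. Each genotype then serves as a repeat of the subset contrast. The residual is the difference between the genotypes in that contrast, moderated with a prior over all genes. The p-values therefore do not measure scatter between replicate arrays. With Benjamini-Hochberg adjustment over 10239 genes, 2 of 86 members rose in CD8-equivalent DCs against 7.98% of all genes, and 0 fell against 6.35%. Over all genes the calls numbered 817 higher and 650 lower, and 756 and 942 after cyclic loess. Before adjustment, 11 members were higher at p under 0.05 (20.3% of all genes) and 1 was lower (13.0%). The members' small shift in wt was thus spread over many genes, while the share that passed the test was below that of all genes. Both CD8-equivalent values lay above both CD4-equivalent values for 48 of 86 members, against 37.0% of all genes, and below both for 1, against 21.3%.

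Ndufs6 encodes a zinc-binding accessory subunit in the part of complex I that oxidises NADH. It read 8.11 in wt CD4-equivalent, 8.83 in wt CD8-equivalent, 7.55 in ko CD4-equivalent and 8.44 in ko CD8-equivalent DCs. Both CD8-equivalent arrays lay above both CD4-equivalent arrays, 1.65-fold in wt and 1.85-fold in ko, and the gene rose by 0.80 ± 0.12 (SE, limma, adjusted p = 0.021). Ndufaf2, an assembly factor that holds the place of the late subunit Ndufa12, read 6.46, 6.98, 6.38 and 6.97 in the same order. It rose by 0.55 ± 0.12 (SE, limma, adjusted p = 0.043, and 0.052 under a trended, robust prior). Ndufa12 itself read 8.53, 9.03, 8.61 and 8.94, with a fitted difference of 0.41 ± 0.12 that did not pass the test (limma, adjusted p = 0.085).

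**Figure D2:**
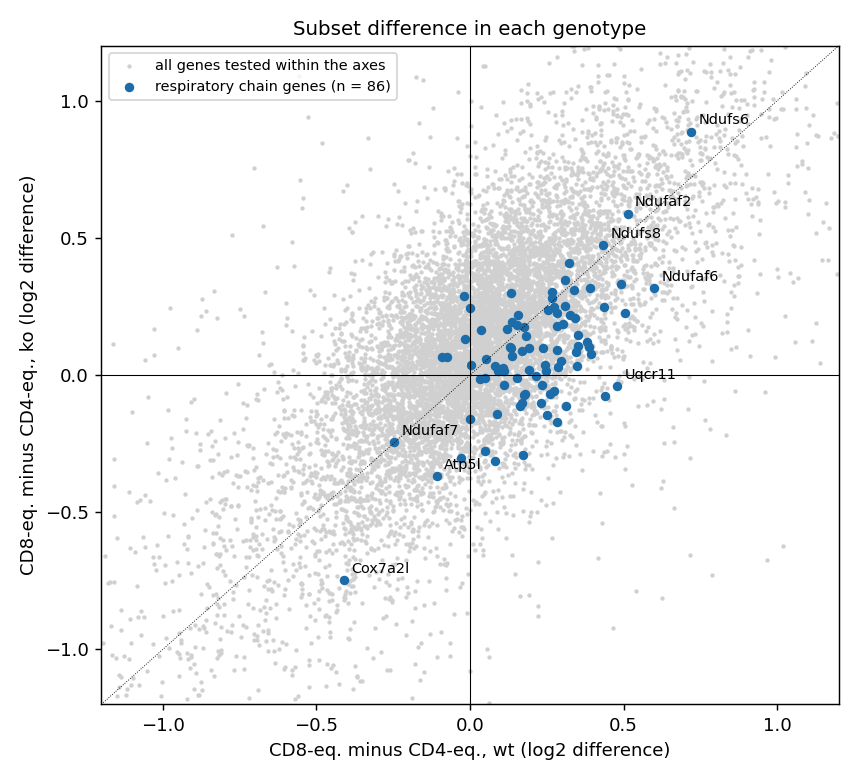
CD8-equivalent minus CD4-equivalent log2 difference in wt (horizontal axis) and in ko (vertical axis) for 86 respiratory chain genes (blue) and all genes tested that lie within the axes (grey); the dotted line marks equal differences. Most members lie right of 0 and below the dotted line, with Ndufs6 at 0.72 and 0.89 and Cox7a2l at -0.41 and -0.75.

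Cox7a2l stood apart from the other members. Its product is known as a link between complex III and complex IV, but C57BL/6 mice carry a short form, whose function was not measured here. Cox7a2l read 9.70 in wt CD4-equivalent, 9.29 in wt CD8-equivalent, 9.86 in ko CD4-equivalent and 9.11 in ko CD8-equivalent DCs. It was the single member with both CD8-equivalent values below both CD4-equivalent values, and its fitted difference of -0.58 ± 0.14 (SE) narrowly missed the threshold (limma, adjusted p = 0.056). The adjusted p was 0.038 after cyclic loess, 0.047 with the mean of its probe sets and 0.021 with the trended and robust prior. Its second probe set gave -0.50 in wt and -0.81 in ko.

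Among the other members at an unadjusted p under 0.05, all higher in CD8-equivalent DCs, were Ndufs8, a core subunit that carries iron-sulfur clusters, with 11.23, 11.66, 11.06 and 11.54 in wt CD4-, wt CD8-, ko CD4- and ko CD8-equivalent DCs (0.45 ± 0.12, limma, adjusted p = 0.064). The assembly factor gene Ndufaf6 read 6.68, 7.28, 6.68 and 7.0 (0.46 ± 0.13, limma, adjusted p = 0.081). Atp5b, the catalytic beta subunit of ATP synthase, read 12.28, 12.59, 12.29 and 12.63, which put both CD8-equivalent arrays above both CD4-equivalent arrays. Atp5j, part of its peripheral stalk (0.37 ± 0.12), Ndufa4 (0.35 ± 0.12), Atp5g3, a gene of the membrane ring (0.34 ± 0.12), Ndufc1, an accessory subunit of complex I (0.37 ± 0.13), and Ndufab1, the mitochondrial acyl carrier protein (0.32 ± 0.12), complete this group, none past the adjusted threshold. With the trended and robust prior 7 of 86 members passed higher, among them Ndufs8, Atp5b, Atp5j and Atp5g3, against 11.9% of all genes. At the low end of the fitted values, after Cox7a2l, stood Ndufaf7 (-0.25 ± 0.12) and Atp5l, a membrane subunit of ATP synthase (-0.24 ± 0.13).

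The second question was what differs without miR-142. In CD8-equivalent DCs 80 of 86 members were below 0 in ko minus wt, against 49.3% of all genes compared, with a median of -0.15 against 0.004, and 6 were above 0 (50.7%). In CD4-equivalent DCs 36 of 86 were above 0 against 36.2% and 50 below against 63.8%, with a median of -0.02 against -0.08. After cyclic loess the median was -0.12 for the CD8-equivalent and 0.04 for the CD4-equivalent pair, so the sign of the CD4-equivalent median depended on the scaling. Relative to all genes the member median in CD4-equivalent DCs was 0.06 as deposited and 0.04 after loess. In CD8-equivalent DCs it was -0.15 and -0.13. No member reached 1.5-fold in either subset, against 4.61% of all genes higher and 3.48% lower among CD8-equivalent arrays and 3.98% and 3.72% among CD4-equivalent arrays. For 2-fold the shares of all genes were 1.14% and 1.0%, and 1.39% and 0.952%. The CD8-equivalent genotype difference and the wt subset difference share the wt CD8-equivalent array, so they are not separate evidence of a high value there.

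Over both subsets, limma called 0 of 86 members for genotype in either direction, against 0.107% of all genes higher and 0.0586% lower. At an unadjusted p under 0.05, 0 members were higher (7.34% of all genes) and 4 lower (8.27%). By cyclic loess, by the mean of probe sets, without the floor and with the trended and robust prior the adjusted count was also 0. Both ko values lay below both wt values for 17 of 86 members, against 18.1% of all genes, and above both for 0, against 9.79%.

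The 4 members with an unadjusted p under 0.05 were Ndufs6 and 3 assembly factors. Ndufs6 gave -0.56 in the CD4-equivalent pair of arrays and -0.40 in the CD8-equivalent pair, a fitted -0.48 ± 0.12 (limma, adjusted p = 0.18). Sdhaf4, which binds the flavinated Sdha protein on its way into complex II, read 7.10 and 7.02 in wt CD4- and CD8-equivalent DCs and 6.59 and 6.65 in ko (-0.44 ± 0.12, limma, adjusted p = 0.21). Both ko arrays lay below both wt arrays, but a second probe set for Sdhaf4, below the floor on all arrays, gave differences of 0.11 and -0.02, so the value rests on 1 probe set. Sdhaf2, needed to attach the flavin to Sdha, read 9.55 and 9.46 in wt and 9.13 and 9.20 in ko (-0.34 ± 0.12, limma, adjusted p = 0.29). Ndufaf7, a methyltransferase that acts on a complex I core subunit, read 7.95 and 7.70 in wt and 7.61 and 7.37 in ko (-0.34 ± 0.12, limma, adjusted p = 0.28). The 3 highest fitted genotype values were 0.11 ± 0.12 for Atp5g3, 0.06 ± 0.15 for Atp5k, a small membrane subunit of ATP synthase, and 0.06 ± 0.13 for Cox4i1, a regulatory subunit of complex IV. These lay within 1 SE of 0.

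**Figure D3:**
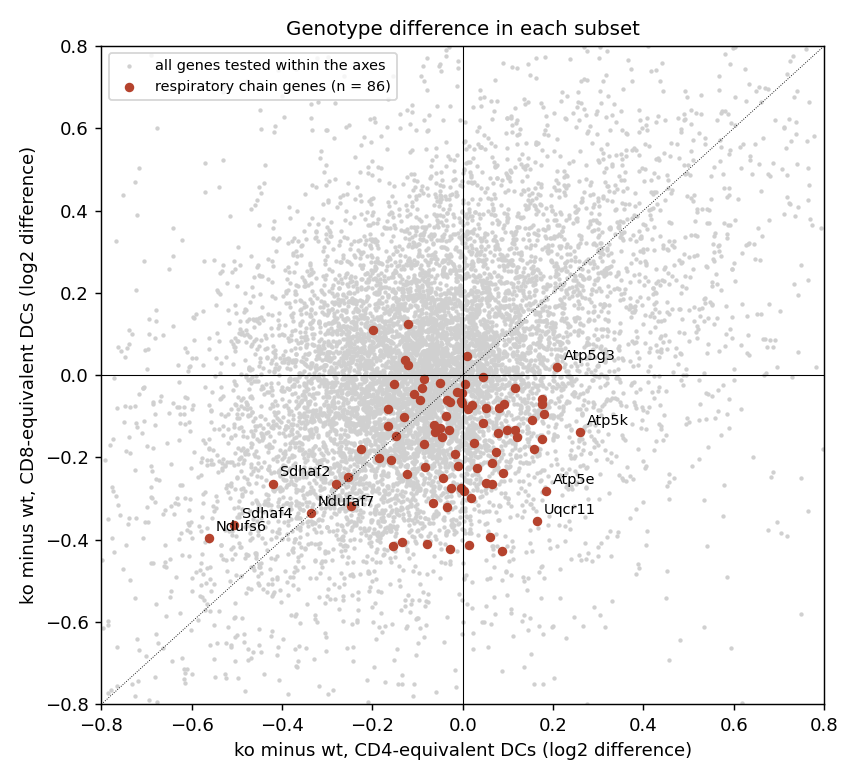
Ko minus wt log2 difference in CD4-equivalent (horizontal axis) and CD8-equivalent DCs (vertical axis) for 86 respiratory chain genes (red) and all genes tested that lie within the axes (grey); the dotted line marks equal differences. 80 members lie below 0 on the vertical axis, while on the horizontal axis they spread to both sides of 0.

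Ko minus wt was smaller or more negative for CD8- than for CD4-equivalent DCs in 65 of 86 members, against 39.4% of all genes, and in 71 after cyclic loess against 50.8%. The median of this difference of differences was -0.12 for members and 0.07 for all genes. It takes the last degree of freedom of the design and was not tested. Since it also holds the wt CD8-equivalent value, it is not separate evidence of a high value on that array. Complex III had the most negative median, -0.32 with 8 of 8 genes below 0, followed by complex IV with -0.22 (11 of 12), complex V with -0.13 (11 of 17) and accessory subunits of complex I with -0.12 (23 of 28). For core subunits of complex I it was 0.02 (3 of 6 below 0). Uqcr11, a small subunit of complex III, had the most negative value, -0.52. It read 9.55 in wt CD4-equivalent, 10.03 in wt CD8-equivalent, 9.72 in ko CD4-equivalent and 9.68 in ko CD8-equivalent DCs, so the wt CD8-equivalent array stood alone at the top. The assembly factor gene Ndufaf4 followed with 7.48, 7.91, 7.56 and 7.49 (-0.51), then the small ATP synthase gene Atp5e (-0.47) and the accessory complex I gene Ndufa1 (-0.45). At the other end stood Ndufs1, the largest core subunit of complex I, with 9.41, 9.39, 9.21 and 9.50 (0.31), and Sdha (0.25).

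**Figure D4:**
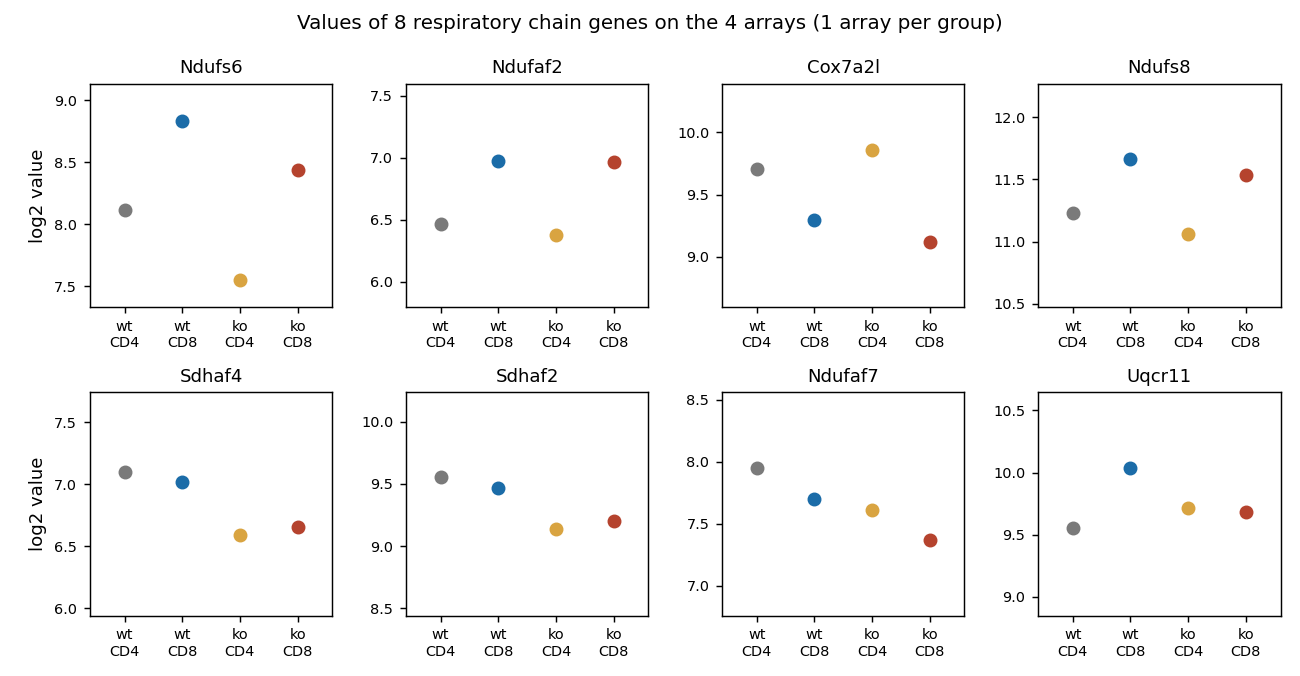
Log2 values of 8 respiratory chain genes on the 4 arrays, 1 point per array and an axis of equal length in each panel. Ndufs6, Ndufaf2 and Ndufs8 read higher on both CD8-equivalent arrays, Cox7a2l lower, Sdhaf4, Sdhaf2 and Ndufaf7 lower on the ko arrays, and Uqcr11 is highest on the wt CD8-equivalent array.

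Tissue isoforms of complex IV were mostly near background. The 6 members below the floor on all arrays were the isoforms Cox4i2 (5.03 to 5.13), Cox6b2 (5.17 to 5.39), Cox7b2 (4.87 to 5.03), Cox8b (4.50 to 4.71) and Cox8c (4.90 to 5.00), known from lung, testis or muscle, and Ndufa4l2 (4.54 to 4.63), known from hypoxic cells. No difference between groups can be read from them. Cox7a1, the heart and muscle isoform, stayed just above the floor with 5.77, 6.12, 5.92 and 6.01. The broadly expressed partners were far above it on all arrays: Cox4i1 read 10.84 to 11.09, Cox6a1 10.92 to 11.10, Cox6b1 12.18 to 12.34, Cox7a2 10.49 to 10.77, Cox7b 12.57 to 12.72, Cox8a 11.91 to 12.08 and Ndufa4 9.96 to 10.59. The 3 genes that encode the same ring protein of ATP synthase differed in pattern. Atp5g3 read 11.38, 11.82, 11.59 and 11.84 and Atp5g1 11.88, 12.18, 11.75 and 11.94, while Atp5g2 stayed at 12.47, 12.47, 12.41 and 12.45. Processed copies of such genes may share probes with them. For the 18 members with several probe sets the median disagreement was 0.03 to 0.08 by comparison, and the largest was 0.62, for Sdhaf4 between genotypes. In the wt subset comparison the largest was 0.27, for Uqcr11, whose probe sets gave 0.48 and 0.75. Cox6c (12.64, 12.96, 12.59 and 12.81) and the ATP synthase gene Atp5md (12.55, 12.93, 12.51 and 12.61) had the highest mean probe set values, which do not rank transcripts of different genes.

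Other mitochondrial genes were set beside the members. Of all genes tested, 24.6% were highest on the wt CD8-equivalent array, and limma called 7.98% higher and 6.35% lower in CD8-equivalent DCs. For genotype it called 0.107% higher and 0.0586% lower. Of 22 cytochrome c, complex III and complex IV genes outside the rule, 14 were highest on the wt CD8-equivalent array, among them Cycs, cytochrome c itself (12.33, 12.78, 12.50 and 12.60), and Cyc1 of complex III (9.91, 10.46, 10.06 and 10.31). Limma called 0 of the 22 for either factor. Of 77 mitochondrial ribosome genes 59 were highest there, and limma called 3 higher in CD8-equivalent DCs, a smaller share than the 7.98% of all genes. Mrpl13 rose by 0.57 (adjusted p = 0.044), Mrpl18 by 0.74 (adjusted p = 0.023) and Mrps28 by 0.53 (adjusted p = 0.048), all by limma. Of 17 tricarboxylic acid cycle genes 5 were highest on the wt CD8-equivalent array, close to the 24.6% of all genes. On the ko CD8-equivalent array 10 were highest (34.1% of all genes), among them Idh2 (10.54, 10.70, 10.61 and 11.09). Of 15 glycolysis genes 4 were highest on the wt CD8-equivalent array, also close to 24.6%. The only one called was the lactate exporter Slc16a3, which fell in CD8-equivalent DCs (-0.74, limma, adjusted p = 0.036). That is 1 of 15 genes, a share close to the 6.35% of all genes called lower. Of 56 cytosolic ribosome genes 17 were highest on the wt CD8-equivalent array (24.6% of all genes). On the ko CD8-equivalent array 42 were lowest (23.6% of all genes), with 0 calls. The annotation names 2 genes of mitochondrial DNA, ND3 (13.16 to 13.37) and COX2 (13.44 to 13.58), and neither was called.

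**Figure D5:**
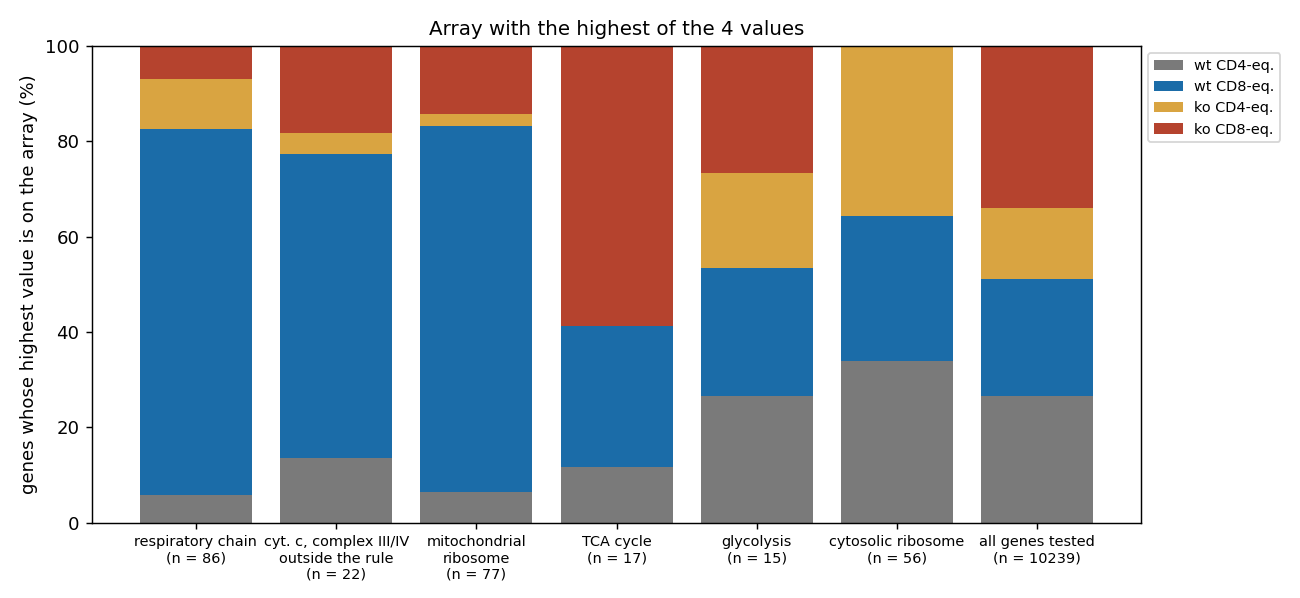
Share of genes (percent) whose highest of 4 values lies on each array, for the respiratory chain and 5 other gene lists and for all genes tested, with the number of genes below each stacked bar. The wt CD8-equivalent share is 66 of 86 for the respiratory chain and 59 of 77 for the mitochondrial ribosome, against 24.6% of all genes.

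Of 14 biogenesis regulators at or above the floor, 5 were highest on the wt CD8-equivalent array (24.6% of all genes) and 6 on the ko CD8-equivalent array (34.1%). Limma called 0 for either factor, against 7.98% of all genes higher and 6.35% lower between subsets. For genotype the shares of all genes were 0.107% and 0.0586%. Nrf1, a transcription factor of many respiratory chain genes, read 8.37, 8.58, 8.27 and 8.68, and Gabpa, a subunit of another such factor, read 10.03, 10.11, 9.99 and 10.19. The mitochondrial DNA packaging factor gene Tfam read 8.22, 8.56, 8.37 and 8.50. The coactivator gene Ppargc1a (5.21 to 5.37) was below the floor on all arrays.

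Promoter sequence was available for 77 of the 92 members in RefSeq windows of build GRCm38.p6, from 250 bases before to 50 bases after a gene's start. The NRF1 motif, GCGCA and GCGC with any base between them, was found on either strand in 20 of the 77 genes (26.0%), against 5.19% of all 27025 genes with a window. CCGGAAG, a core of the GABP site, was found in 21 (27.3% against 9.93%), and AAGATGGCG, a core of the YY1 site, in 7 (9.09% against 1.64%). A match is a description of letters and not a measured site. The median wt subset difference was 0.18 for the 20 members with the NRF1 motif and 0.22 for the 54 others, 0.25 and 0.18 with and without GABP, and 0.28 and 0.18 for YY1, the last over 7 and 67 genes. The 150 bases before the start are shown for the 2 members called between subsets (Ndufs6 and Ndufaf2), the 2 with the most negative difference of differences (Uqcr11 and Ndufaf4) and the member that stood lower in CD8-equivalent DCs (Cox7a2l). Capitals mark matches to the 3 motifs, in the order 5′ to 3′ of each gene's strand:
Ndufs6 (chr13:73328483-73328632, minus strand): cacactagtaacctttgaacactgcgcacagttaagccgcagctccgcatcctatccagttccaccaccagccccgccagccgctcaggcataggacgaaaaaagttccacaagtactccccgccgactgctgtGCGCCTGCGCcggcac
Ndufaf2 (chr13:108158626-108158775, minus strand): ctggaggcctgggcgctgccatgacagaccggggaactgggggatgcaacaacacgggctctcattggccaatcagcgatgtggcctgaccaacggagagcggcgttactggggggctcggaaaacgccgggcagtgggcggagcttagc
Uqcr11 (chr10:80406822-80406971, minus strand): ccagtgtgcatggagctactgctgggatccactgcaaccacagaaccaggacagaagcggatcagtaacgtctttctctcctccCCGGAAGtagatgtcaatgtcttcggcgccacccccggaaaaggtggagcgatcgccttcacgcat
Ndufaf4 (chr4:24897933-24898082, plus strand): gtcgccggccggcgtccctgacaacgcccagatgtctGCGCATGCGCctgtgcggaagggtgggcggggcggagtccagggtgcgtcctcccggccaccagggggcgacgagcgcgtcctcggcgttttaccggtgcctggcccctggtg
Cox7a2l (chr17:83514334-83514483, minus strand): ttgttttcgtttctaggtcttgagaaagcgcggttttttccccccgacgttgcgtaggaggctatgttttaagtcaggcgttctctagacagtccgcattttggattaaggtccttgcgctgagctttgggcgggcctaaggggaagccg
The NRF1 match of Ndufs6 begins 16 bases and that of Ndufaf4 113 bases before the start, and the GABP match of Uqcr11 begins 66 bases before it. Ndufs6 also has a YY1 match in its window, outside the bases shown. Ndufaf2 and Cox7a2l, which differed between subsets in opposite directions, hold none of the 3 motifs in the bases shown.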

How the data were processed

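Expression was measured in 4 samples, 1 array for each genotype and sorted subset. The deposited log2 values are, per the submitters' processing notes, RMA summaries handled in Partek; their versions were not found in these sources. The log base was inferred from the values (3.52 to 14.3). RMA normalises arrays together and compresses differences near background. Probe sets with 1 symbol in the 2016 platform annotation entered, and the one with the highest mean stood for a gene. Column medians ran from 5.87 to 5.94. A pairwise difference was taken where the higher value reached 5.68. limma 3.58.1 in R 4.3.3 (lmFit, eBayes, two-sided, Benjamini-Hochberg, threshold 0.05) fitted an additive model with 1 residual and 3.98 prior degrees of freedom, and was tested on simulated data. Alternatives were cyclic loess, no floor, a trended and robust prior, the mean of probe sets, 1.5-fold in place of 2-fold and structural subunits only. The members and lists were chosen with earlier results of these data known. Genes named are those called, those at least 1.5-fold different, the 3 highest and lowest for each effect, paralogs and tissue isoforms, complex II and the highest mean values; others were named after their values were seen. Kinases that share the Rps prefix were left out of the cytosolic ribosome list.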

Additional observations from a re-analysis of the deposited data

Results flagged for a closer look

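Genotype differences of opposite sign in the subsets, 1 array per group and with the difference not tested, were found for 3 complexes and 5 genes. Opposite signs were common: the 2 differences had the same sign in 48 of 86 members and in 61.8% of all genes tested. The complex medians, ko minus wt in CD4- and CD8-equivalent DCs, were 0.0079 and -0.037 for complex II subunits, both close to 0. They were 0.037 and -0.26 for complex III and 0.069 and -0.14 for complex IV. Among single genes, those with both differences larger in size than the median fitted SD of 0.12 were Atp5e (0.18 and -0.28), Atp5k (0.26 and -0.14), Cox7a2l (0.16 and -0.18), the complex I accessory gene Ndufs5 (0.18 and -0.15) and Uqcr11 (0.16 and -0.35). That SD is for 1 array and is smaller than the SD of a difference between 2 arrays. The share of all genes past this cut was not counted.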

How the results depend on the processing

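The members called higher in CD8-equivalent DCs numbered 2 as deposited, after cyclic loess and with the mean of probe sets, 1 without the floor and 7 with the trended and robust prior. Those called lower numbered 0 as deposited, 1 after cyclic loess, 1 with the mean of probe sets and 1 with the trended and robust prior. At 1.5-fold in place of 2-fold, 2 members differed between subsets in wt and 3 in ko. After cyclic loess the median genotype difference in CD4-equivalent DCs turned from -0.021 to 0.043. Relative to all genes it was 0.056 as deposited and 0.035 after loess. The median subset difference in ko fell from 0.081 to 0.017 after cyclic loess. Members highest on the wt CD8-equivalent array numbered 66 as deposited and 58 after cyclic loess (20.1% of all genes). With 1 of the other arrays left out they numbered 70 to 74 (26.4% to 47.7% of all genes), counts that could only rise. For all genes, the genotype calls numbered 11 higher and 6 lower as deposited, 1 and 2 without the floor, 85 and 36 after cyclic loess and 178 and 129 with the trended and robust prior. The subset calls of all genes fell from 817 to 501 higher without the floor and numbered 1223 with the trended and robust prior. The highest-array and difference-of-differences alternatives were chosen after seeing the data. Leaving out an array ends the test, since the model then has no residual degree of freedom. No paired analysis was possible because each group holds 1 array and the labels give no replicate numbers. No detection calls were used, so signal over background is known only against the floor.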
